A study of Homo sapiens with 8 samples.

Results

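The 10 genes described here carry the unfolded protein response: the stress sensors ERN1, EIF2AK3 and ATF6, the transcription factor XBP1, and 6 endoplasmic reticulum proteins that the response controls, HERPUD1, SEL1L, DNAJB9, DNAJC3, HYOU1 and PDIA4. They were chosen by name, with earlier results of these data known, from the 15902 genes listed in the deposited tables. They hold 114 of the 142206 introns used. Cells of SUM159, a long-established human line of triple-negative breast cancer, had been exposed for 12 h to H3B-8800, which targets SF3b in the spliceosome and inhibits splicing, or to its solvent DMSO. Polyadenylated RNA was sequenced from the input or from what the anti-double-stranded-RNA antibody J2 had immunoprecipitated. The 4 groups are therefore input RNA of drug-treated cells, input RNA of vehicle-treated cells, J2 RNA of drug-treated cells and J2 RNA of vehicle-treated cells, with 2 libraries each. The labels call the libraries biological duplicates and do not say whether they came from separate cultures, so p-values measure the spread between these libraries only. No library of a control antibody was analysed here, so a level in J2 RNA cannot be attributed to double-stranded structure.

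Secretory and membrane proteins fold in the endoplasmic reticulum, and unfolded protein there activates a trio of membrane sensors. IRE1, encoded by ERN1, removes a short segment from the cytoplasmic XBP1 mRNA so that an active transcription factor is made. PERK, encoded by EIF2AK3, phosphorylates the initiation factor eIF2 and slows translation while favouring ATF4, and ATF6 moves to the Golgi apparatus, where proteolysis frees a transcription factor. Together these factors induce chaperones, disulfide-forming enzymes and the machinery that returns misfolded proteins to the cytosol for degradation.

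For each intron the tables hold reads inside it, called intronic below, and reads taken as spliced across it. Levels are in RPM, reads per 1000000 of the library depth behind the authors' RPKM, which was 47000000 to 57000000 reads. The intronic share is intronic reads as a percent of intronic plus spliced reads. Over all introns this share was 10.3 to 13.0% in the 4 drug libraries and 3.63 to 3.98% in the 4 vehicle libraries. The median gene changed by -0.38 in spliced reads with the drug in the input and by -0.03 in J2 RNA (log2), and by 1.73 and 2.20 in intronic reads. Of the mesenchymal markers, VIM was at 459 to 653 RPM of spliced reads and ZEB1 at 0.0377 to 0.902 RPM. Of the luminal markers ESR1 was at 0 and EPCAM, CDH1 and KRT19 did not exceed 0.105 RPM, whereas GATA3 was at 1.54 to 2.33 RPM; of the immune markers CD3E was at 0 and CD14 did not exceed 0.158 RPM.

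The exon junctions below are shown because their own spliced reads, or the reads inside the intron they span, are described further on for ERN1, ATF6, XBP1, HERPUD1, PDIA4 and HYOU1. Each line gives the last 15 bases of the upstream exon in lower case and the first 15 bases of the downstream exon in capitals, 5′ to 3′ on the coding strand, from the GENCODE 29 transcripts on GRCh38. The intron removed between them is given by its position in its transcript.
ERN1 intron 11: aagagctttgaggaaGTTATCAACCTGGTT
ERN1 intron 12: atcacctatcccctgAGCATGCATCAGCAG
ATF6 intron 2: gcaaatgagacgtatGAAAACAATTTTGAT
ATF6 intron 4: actcagcatgttcctGAGGAGTTGGATTTG
XBP1 intron 4: tcttcagattcagagTCTGATATCCTGTTG
HERPUD1 intron 5: gtactacatgcaataTTTAGCAGCCACTGC
PDIA4 intron 5: cacgagaaaaatatgGAATCGTTGATTACA
HYOU1 intron 6: ctgaagattttgcagAGCAGCCCATCAAGG
HYOU1 intron 19: atatttgagacccagGACAAGCTGTACCAG
HYOU1 intron 20: ggagccaccacagtgATGTTGAAGGAGAAG

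The segment of XBP1 that IRE1 removes is shown because it is the best known processing event of this pathway. It has 26 bases, in capitals below between 8 flanking bases on each side, and lies at chr22:28796124-28796149 (GRCh38, minus strand) in coding sequence. It is not one of the 4 listed XBP1 introns, so its removal was not analysed here.
XBP1 segment: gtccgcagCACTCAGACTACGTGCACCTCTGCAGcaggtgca

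Promoters of the members, 250 bases before to 50 after the start in RefSeq (GRCh38.p14), were available for 10 of 10 and were searched on both strands for the named endoplasmic reticulum stress elements. The element ERSE, CCAAT and CCACG with 9 bases of any kind between them, occurred in 27 of 35116 promoters (0.0769%), with XBP1 as the single member. ERSE-II, ATTGG and CCACG with 1 base of any kind between them, occurred in 19 of 35116 (0.0541%), among them HYOU1, which holds it at 2 places, both in the reverse orientation, and HERPUD1. The matches are in capitals below with 5 flanking bases, and they are descriptions of the sequence, not measured binding sites.
XBP1 ERSE: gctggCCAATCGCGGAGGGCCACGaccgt
HYOU1 ERSE-II, upstream: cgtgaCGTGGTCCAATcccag
HYOU1 ERSE-II, downstream: tgggaCGTGGTCCAATgagta
HERPUD1 ERSE-II: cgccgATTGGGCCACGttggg

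With the drug, the genes of the response did not move as a block in either kind of RNA. In the input, spliced RNA of the chaperone HYOU1, the degradation adaptor SEL1L and the co-chaperone DNAJB9 fell. Summed over all introns of a gene, that of the sensor ATF6 and, slightly, of the oxidoreductase PDIA4 rose. The ATF6 sum joins introns 1 to 4, at 3.37 times the vehicle level, with introns 5 to 15, at 0.61 times. The input calls of ATF6 and PDIA4 were lost when single libraries were left out, as given below. In J2 RNA the sensors ATF6 and EIF2AK3 and the co-chaperone DNAJC3 rose, and HYOU1, DNAJB9, PDIA4, XBP1 and HERPUD1 fell. All 10 members passed the filter of 1 RPM in at least 2 libraries. By edgeR's quasi-likelihood test at a Benjamini-Hochberg adjusted p of 0.05, 2 members rose and 3 fell in the input, against a background of 21.8% of 8461 genes higher and 48.7% lower. In J2 RNA 3 rose and 5 fell, against 34.6% higher and 39.5% lower. These calls rest on depth scaling. With TMM or median-of-ratios scaling more members rose in the input, XBP1 and HERPUD1 among them. Fewer cells and less RNA per cell cannot be told apart in such depth-scaled levels.

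Spliced levels are given here per listed intron, to allow for unequal numbers of introns. In input RNA with vehicle this level was highest for PDIA4 at 15.01 ± 0.169 RPM and XBP1 at 13.5 ± 0.0925 RPM (SD, n = 2). HYOU1 at 9.77 ± 0.0407, HERPUD1 at 8.47 ± 0.131 and DNAJB9 at 1.53 ± 0.137 RPM followed. SEL1L at 0.8002 ± 0.0343 and ERN1 at 0.759 ± 0.0389 RPM differed by about their spread, as did DNAJC3 at 0.403 ± 0.0160 and ATF6 at 0.393 ± 0.0311 RPM, and EIF2AK3 was lowest at 0.106 ± 0.000975 RPM. With the drug HYOU1 stood at 3.32 ± 0.215 RPM per intron in the input, below HERPUD1 at 8.42 ± 0.905 RPM. Junctions of a gene differed in their reads, and 7 of 20 SEL1L and 5 of 7 HERPUD1 introns were listed. This order of genes therefore depends on the introns listed.

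**Figure D1:**
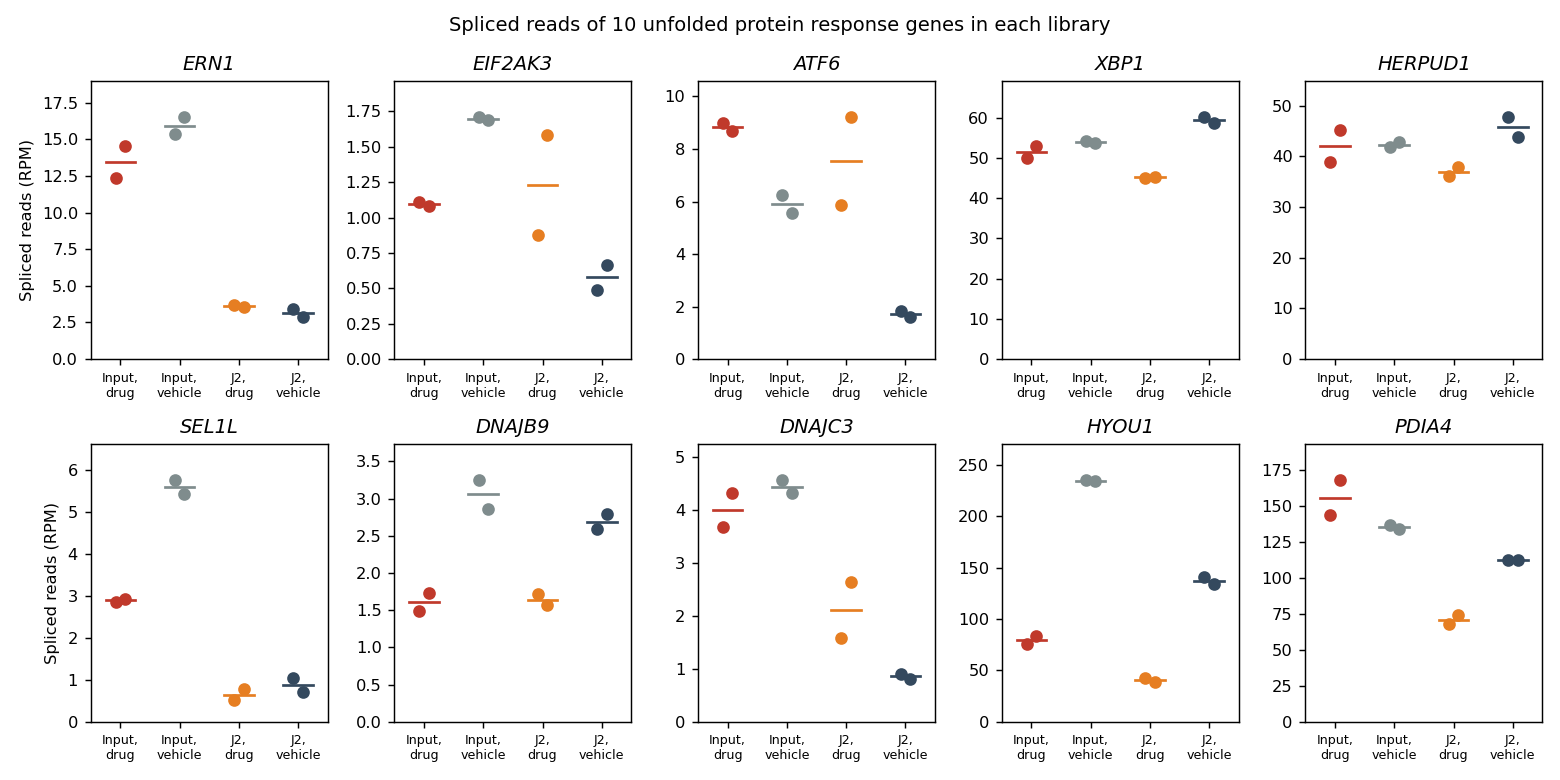
Spliced level in RPM of each of the 10 genes in the 8 libraries, drawn by group on linear axes that start at 0 and differ between genes. Points are single libraries and lines are means of 2. HYOU1 sits at 76.0 and 83.3 RPM in the input libraries with drug and at 235 and 234 RPM in those with vehicle, the widest separation of the 10 genes in the input.

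The sensors differed from one another. ATF6 had 9 and 8.69 RPM in input libraries with drug, against 6.23 and 5.57 RPM with vehicle, and 5.86 and 9.21 RPM in J2 libraries with drug, against 1.83 and 1.61 RPM with vehicle. In this sum over all ATF6 introns, drug libraries lay above vehicle libraries in both kinds of RNA. The log2 change of ATF6 was 0.58 ± 0.19 in the input (SE; adjusted p = 0.021) and 2.13 ± 0.21 in J2 RNA (adjusted p = 1.3e-05). The change in the input was lost, at 0.51 to 0.67, when any 1 of the 4 input libraries was left out (adjusted p = 0.052 to 0.12).

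EIF2AK3 rose in J2 RNA and was lower with the drug in the input without passing the test. It had 1.11 and 1.08 RPM in input libraries with drug, against 1.71 and 1.69 RPM with vehicle, and 0.880 and 1.58 RPM in J2 libraries with drug, against 0.491 and 0.667 RPM with vehicle. The groups did not overlap in either RNA, with drug below vehicle in the input and above it in J2 RNA. The change was -0.63 ± 0.32 in the input (adjusted p = 0.10) and 1.09 ± 0.34 in J2 RNA (adjusted p = 0.015). Without J2 drug replicate 2 the change in J2 RNA was 0.60 (adjusted p = 0.12), and without J2 vehicle replicate 1 it was 0.89 (adjusted p = 0.098).

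ERN1 had 12.3 and 14.6 RPM of spliced reads in input libraries with drug, against 15.4 and 16.5 RPM with vehicle, and 3.70 and 3.58 RPM in J2 libraries with drug, against 3.40 and 2.89 RPM with vehicle. Neither change passed the test (-0.24 ± 0.12, adjusted p = 0.09, and 0.21 with an adjusted p of 0.18), and the sign in the input turned to 0.037 with TMM and 0.17 with median-of-ratios factors. The median gene in the input was at -0.09 with TMM and at 0.03 with median-of-ratios factors.

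XBP1, the substrate of IRE1, was hardly different in the input, with 49.96 and 53.1 RPM with drug and 54.2 and 53.7 RPM with vehicle. In J2 RNA it had 45.0 and 45.4 RPM with drug, against 60.1 and 58.7 RPM with vehicle, a fall of 0.40 ± 0.06 on the log2 scale (adjusted p = 0.00013). The change in the input was -0.07 ± 0.06 (adjusted p = 0.31), and it passed the test as a rise with TMM (0.22, adjusted p = 0.0072) and median-of-ratios scaling (0.34, adjusted p = 0.00065).

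The factors of protein disposal went separate ways. SEL1L, the adaptor of the ubiquitin ligase HRD1, had 2.85 and 2.94 RPM in input libraries with drug, against 5.77 and 5.43 RPM with vehicle (-0.95 ± 0.22, adjusted p = 0.003). In J2 RNA, SEL1L had 0.520 and 0.774 RPM with drug and 1.04 and 0.719 RPM with vehicle, and these groups overlapped. HERPUD1, a membrane protein of the same ligase complex, had 38.9 and 45.3 RPM in input libraries with drug, against 41.9 and 42.8 RPM with vehicle, which overlapped. In J2 RNA HERPUD1 had 36.1 and 37.9 RPM with drug, against 47.7 and 43.8 RPM with vehicle (-0.31 ± 0.08, adjusted p = 0.0067; -0.24 with an adjusted p of 0.062 without J2 vehicle replicate 1). With TMM and median-of-ratios scaling HERPUD1 rose in the input by 0.27 (adjusted p = 0.0043) and 0.40 (adjusted p = 0.00050), against a value of -0.01 with depth scaling (adjusted p = 0.93).

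The co-chaperones of the Hsp70 chaperone BiP moved in opposite directions in J2 RNA. DNAJB9 had 1.49 and 1.73 RPM in input libraries with drug, against 3.25 and 2.86 RPM with vehicle, and 1.72 and 1.57 RPM in J2 libraries with drug, against 2.58 and 2.79 RPM with vehicle. It fell by 0.92 ± 0.19 in the input (adjusted p = 0.0019) and by 0.71 ± 0.19 in J2 RNA (adjusted p = 0.0077; -0.65 with an adjusted p of 0.053 without J2 vehicle replicate 2). DNAJC3, which also inhibits PERK, had 3.68 and 4.31 RPM in input libraries with drug and 4.56 and 4.31 RPM with vehicle, with no call. In J2 RNA DNAJC3 had 1.58 and 2.64 RPM with drug, against 0.906 and 0.807 RPM with vehicle, a rise of 1.30 ± 0.27 (adjusted p = 0.0014).

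HYOU1, an Hsp70-like chaperone and exchange factor of BiP, showed the deepest fall of the members in the input and the deepest in J2 RNA. Its J2 libraries had 42.2 and 39.0 RPM with drug, against 141 and 134 RPM with vehicle. The change was -1.56 ± 0.06 in the input (adjusted p = 3.2e-08) and -1.76 ± 0.06 in J2 RNA (adjusted p = 2.6e-08). PDIA4, a protein disulfide isomerase, had 143 and 168 RPM in input libraries with drug, against 136 and 134 RPM with vehicle (0.20 ± 0.07, adjusted p = 0.034). It had 67.5 and 73.8 RPM in J2 libraries with drug, against 112 and 112 RPM with vehicle (-0.67 ± 0.08, adjusted p = 3.1e-05). The rise of PDIA4 in the input was 0.08 without input drug replicate 2 (adjusted p = 0.26), and it was also lost without either input vehicle library (0.21 and 0.19, adjusted p = 0.10 and 0.14) or either J2 vehicle library (0.20, adjusted p = 0.056).

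**Figure D2:**
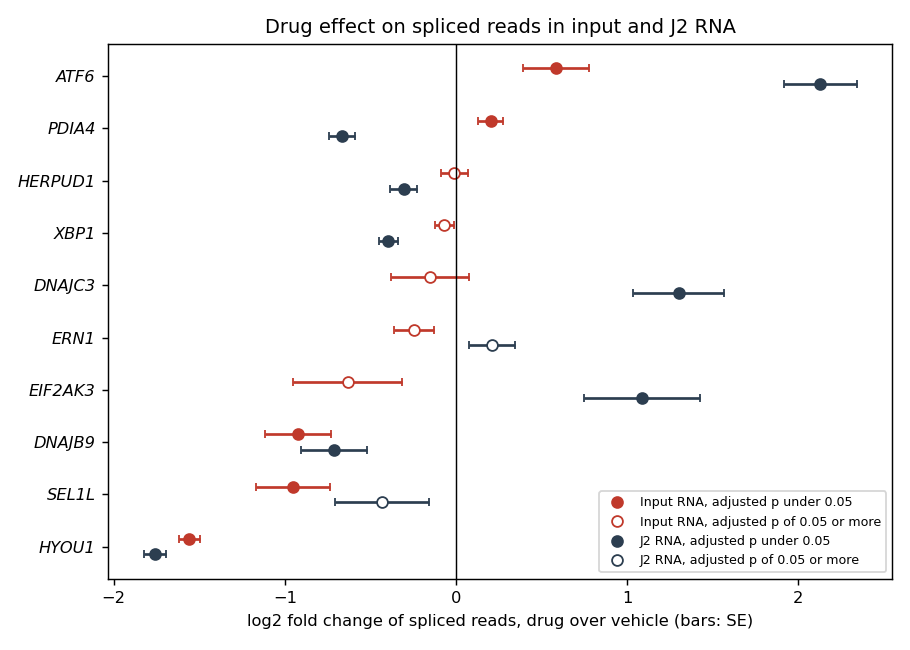
Log2 fold change, drug over vehicle, of spliced reads of each gene in input and J2 RNA, with bars of 1 SE from the edgeR fit and filled points where the adjusted p was under 0.05. HYOU1 lies at -1.56 in the input and -1.76 in J2 RNA, close together, whereas ATF6 lies at 0.58 in the input and 2.13 in J2 RNA.

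Intronic reads were few in most members. DNAJB9 had 0 to 4 intronic reads in a library, DNAJC3 1 to 16, SEL1L 2 to 24, EIF2AK3 2 to 33 and HERPUD1 12 to 63, and these genes did not reach the filter of 1 RPM in at least 2 libraries that all genes had to pass. HYOU1 passed through its 4 drug libraries, which alone reached 1 RPM, so its rise was in part required by the filter; without a filter it was called in both kinds of RNA as well (adjusted p = 1.1e-19 and 2.2e-24). HYOU1 had 181 and 183 intronic reads in input libraries with drug, against 34 and 36 with vehicle, and 149 and 164 in J2 libraries with drug, against 15 and 28 with vehicle. Its intronic share was 4.82 and 4.38% in the input with drug, against 0.300 and 0.301% with vehicle, and 6.60 and 7.36% in J2 RNA with drug, against 0.201 and 0.365% with vehicle.

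ERN1 kept the highest intronic share of the members in every group. Its share was 49.7 and 47.0% in the input with drug, against 23.8 and 24.8% with vehicle, and 86.3 and 86.3% in J2 RNA with drug, against 75.4 and 79.7% with vehicle. The share takes reads over the whole length of an intron, and most of these lay in the long intron 1. Per kilobase, averaged over all libraries, that intron held 18.4 intronic reads. HYOU1 intron 20 held 257, PDIA4 intron 7 32.0 and XBP1 intron 1 20.7, and the densest introns of the remaining members held fewer than ERN1 intron 1. These densities are not set against spliced reads. Intronic reads of ERN1 numbered 572 and 622 in input libraries with drug, against 230 and 278 with vehicle, and 1164 and 1201 in J2 libraries with drug, against 552 and 647 with vehicle. In edgeR's test they rose by 1.29 ± 0.11 in the input (adjusted p = 4e-11) and by 1.08 ± 0.10 in J2 RNA (adjusted p = 1.4e-10). Both rises were smaller than those of the median gene that passed the filter. Drug libraries alone could meet this filter, so that median favours a rise. With TMM scaling, which removes the shift of the genes tested, the rises of ERN1 became -0.37 and -1.10.

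EIF2AK3 also changed its share, on few reads. The share was 36.6 and 31.6% in the input with drug, against 6.82 and 4.44% with vehicle, and 34.3 and 28.2% in J2 RNA with drug, against 13.3 and 5% with vehicle. These values rest on 30 and 24 intronic reads in the input with drug and 6 and 4 with vehicle. Of the intronic reads in the input with drug 16 of 54, and in J2 RNA with drug 28 of 56, lay in intron 13, which overlaps an exon of the antisense gene AC104134.1, and strand use in the counting is not stated.

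PDIA4 and ATF6 differed between input and J2 RNA. PDIA4 had 124 and 154 intronic reads in input libraries with drug, against 91 and 119 with vehicle, and 85 and 67 in J2 libraries with drug, against 23 and 32 with vehicle. Its intronic reads changed by 0.47 in the input (adjusted p = 0.056) and by 1.56 ± 0.28 in J2 RNA (adjusted p = 1.1e-05), the last turning to -0.61 with TMM scaling. ATF6 had 32 and 37 intronic reads in input libraries with drug, against 60 and 40 with vehicle (shares of 7.03 and 8.15% against 16.7 and 12.3%), and 44 and 70 in J2 libraries with drug, against 23 and 39 with vehicle. ATF6 reached 1 RPM of intronic reads in 2 libraries only, input vehicle replicate 1 and J2 drug replicate 2, so the filter favoured a rise in J2 RNA and a fall in the input. Its rise in J2 RNA of 0.97 ± 0.36 (adjusted p = 0.013) was called without a filter too (adjusted p = 0.016), but was 0.65 without J2 drug replicate 2 (adjusted p = 0.17), 0.69 without J2 vehicle replicate 1 (adjusted p = 0.12) and -1.20 with TMM scaling.

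XBP1 had 65 and 44 intronic reads in input libraries with drug, 60 and 56 with vehicle, 8 and 27 in J2 libraries with drug and 20 and 30 with vehicle, with overlap in both kinds of RNA and no call. Over the 5 members tested, 2 had more intronic reads with the drug in the input and 4 in J2 RNA, against backgrounds of 78.3% and 83.7% of 3992 genes. None was lower in the input or in J2 RNA, where the backgrounds were 6.51% and 5.74%; at an unadjusted p of 0.05, and with DESeq2, the count was also 0. Relative to the general rise, that is with TMM or median-of-ratios scaling, 1 was higher and 4 were lower in the input, and 1 was higher and 3 were lower in J2 RNA. With depth scaling HYOU1 is among those higher in both kinds of RNA, and ATF6 in J2 RNA. The filter favoured these rises, so nothing is read from these counts.

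The intronic to spliced ratio within a library does not depend on its depth. HYOU1 entered this test through its drug libraries alone, so its p is given from limma's fit without a filter: the ratio rose by 3.96 in the input (adjusted p = 0.00062) and by 4.72 in J2 RNA (adjusted p = 0.00031). In limma's test with the filter, that of ERN1 rose by 1.54 ± 0.19 (adjusted p = 0.0002) and 0.86 ± 0.19 (adjusted p = 0.0038). The median gene that passed this filter, which can favour a rise, stood higher, at 2.30 and 2.44. The ratio of PDIA4 changed by 0.27 in the input (adjusted p = 0.35) and rose by 2.21 ± 0.25 in J2 RNA (adjusted p = 0.00012). ATF6 fell, by 1.02 ± 0.31 in the input (adjusted p = 0.017) and by 1.12 ± 0.31 in J2 RNA (adjusted p = 0.011). The background was 83.8% of 3837 genes higher and 2.37% lower in the input, against 2 and 1 of the 5 members, and 83.5% and 3.49% in J2 RNA, against 3 and 1; HYOU1 is among those higher, so nothing is read from these counts. Without a filter neither fall of ATF6 passed the test (adjusted p = 0.074 and 0.056). The fall of ATF6 in the input was lost without input drug replicate 1 (-0.91, adjusted p = 0.083) or input vehicle replicate 1 (-0.77, adjusted p = 0.094). With intronic and spliced reads scaled each to their own median, which removes the general rise, ERN1 turned to -0.65 and -1.58 and PDIA4 to -1.91 and -0.19.

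**Figure D3:**
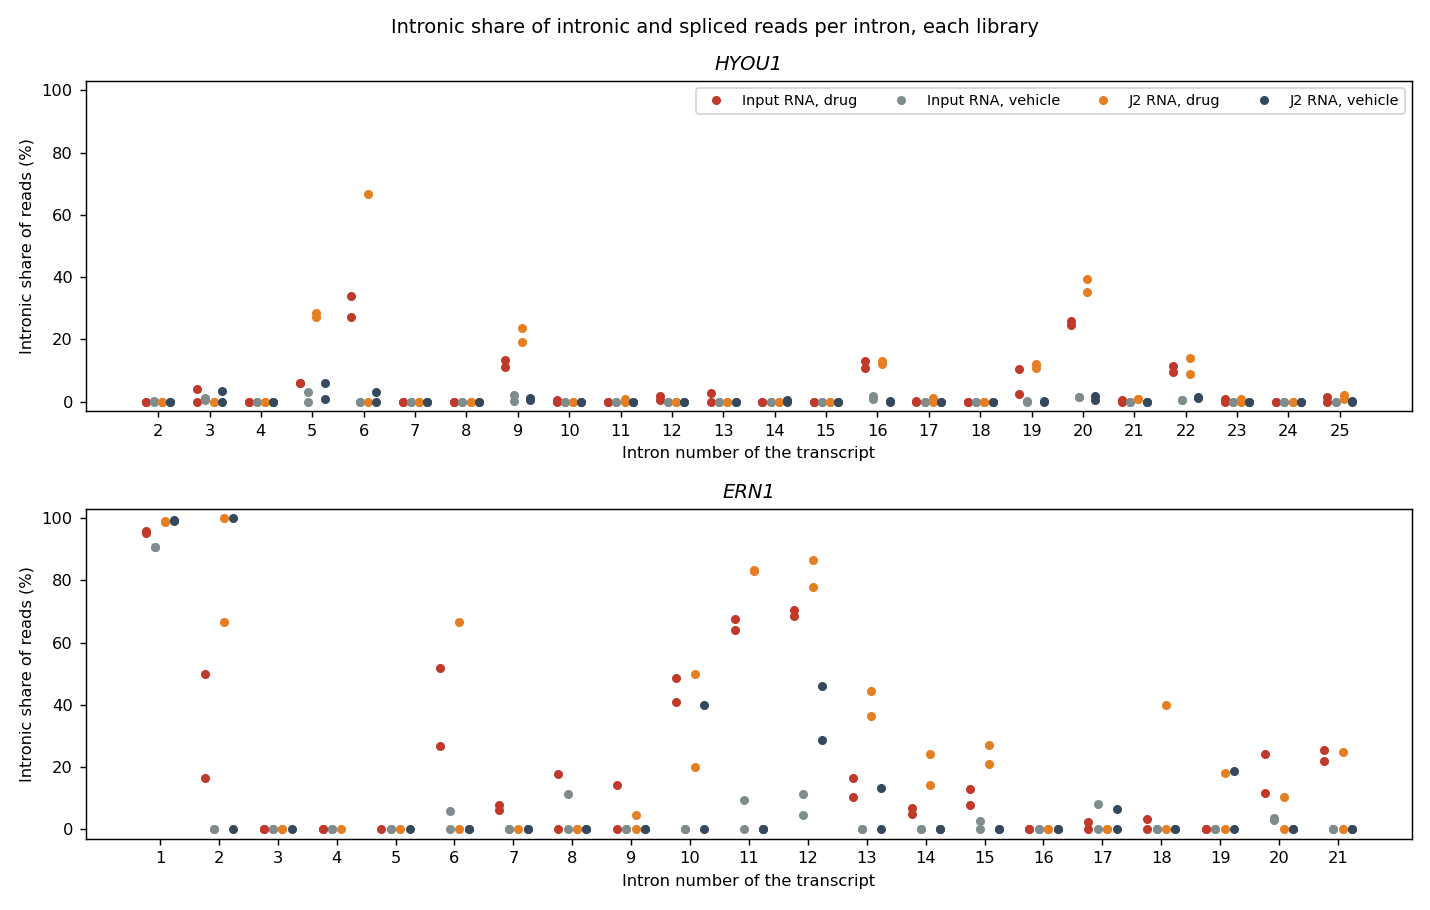
Intronic share in percent at each listed intron of HYOU1 and ERN1, numbered along the transcript; points are single libraries, coloured by group, and a library with no read at an intron has no point. HYOU1 intron 20 is at 24.6 and 25.9% in input libraries with drug, against 1.38 and 1.58% with vehicle, and ERN1 intron 12 at 68.6 and 70.6%, against 4.76 and 11.5%, while many introns of both genes stay near 0 in every library.

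Single introns of HYOU1 showed where its intronic reads lay. Intron 20 (chr11:119048081-119048247, GRCh38, minus strand, 167 bases) held 69 and 70 intronic beside 212 and 200 spliced reads in input libraries with drug, against 11 and 13 beside 784 and 810 with vehicle. In J2 libraries it held 78 and 91 beside 143 and 139 with drug, against 8 and 3 beside 462 and 463 with vehicle. Drug and vehicle libraries did not overlap in either number, and the ratio rose by 4.39 ± 0.45 in the input (limma, adjusted p = 7.8e-05) and by 5.54 in J2 RNA (adjusted p = 1.6e-05).

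Intron 19 of HYOU1 (chr11:119048371-119048475, 105 bases), its neighbour, held 23 and 7 intronic reads in input libraries with drug, against 0 and 1 with vehicle, and 16 and 18 in J2 libraries with drug, against 1 and 0 with vehicle. Of the 364 intronic reads of HYOU1 in the input with drug, 337 lay in the 6 introns picked for at least 20 such reads. The other 18 introns held 27. Lengths overlapped, at 105 to 931 bases (median 257.5) in the 6 and 94 to 1291 bases (median 151.5) in the 18. In the input with drug, intronic reads thus lay mostly in a minority of its introns. The ratio was called higher in 21 of 24 HYOU1 introns in the input and in 23 of 24 in J2 RNA, against 43% and 41.6% of introns, but 15 and 16 of these calls rest on under 1 intronic read on average and follow the spliced reads. The 5 introns with at least 5 intronic reads on average were called higher in both, against 66.7% and 66.8% of such introns. That average includes the drug libraries, so this filter favoured a rise.

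Reads across the HYOU1 junctions fell along the whole gene. By edgeR, 23 of 24 fell in the input (-1.92 to -0.55 over the 24), against 46.9% of all junctions tested. In J2 RNA 24 of 24 fell (-4.03 to -1.20), against 38.9%. With median-of-ratios scaling 21 fell in the input. Junctions of a gene share its RNA, so these counts are not separate results. The deepest fall in J2 RNA was at intron 6 (chr11:119054676-119054983, 308 bases), with 3 and 3 spliced reads with drug, against 46 and 63 with vehicle (-4.03 ± 0.46). In the input the same junction had 29 and 32 spliced reads with drug, against 56 and 37 with vehicle (-0.55, adjusted p = 0.14). The junctions of introns 4, 5 and 7 changed by -2.48, -2.99 and -2.72 in J2 RNA and by -1.36, -0.89 and -0.80 in the input, where introns 5 and 7 were not called with TMM (-0.35 and -0.25) or median-of-ratios scaling (-0.31 and -0.21).

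In ERN1, intron 1 (chr17:64098242-64129975, minus strand, 31734 bases) held most intronic reads, 2168 of 2365 in J2 RNA with drug (91.7%) and 1180 of 1199 with vehicle (98.4%), and 851 of 1194 in the input with drug (71.3%) and 482 of 508 with vehicle (94.9%). This intron also contains an exon of another ERN1 transcript, so some of these reads may be exonic there. The other 20 introns held 166 and 177 intronic reads in input libraries with drug, against 12 and 14 with vehicle, and 80 and 117 in J2 libraries with drug, against 10 and 9 with vehicle. The level of introns 2 to 21 was thus 13.8 times as high with the drug as with vehicle in the input and 10.99 times in J2 RNA, that of intron 1 1.84 and 1.97 times.

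Intron 12 of ERN1 (chr17:64055949-64057801, 1853 bases) held 70 and 72 intronic beside 32 and 30 spliced reads in input libraries with drug, against 2 and 6 beside 40 and 46 with vehicle. Its ratio rose by 4.43 ± 0.53 in the input (adjusted p = 0.00019) and by 2.79 in J2 RNA (adjusted p = 0.0022). Intron 11 (chr17:64057994-64060468, 2475 bases) held 29 and 25 intronic reads in input libraries with drug, against 2 and 0 with vehicle, and 10 and 29 in J2 libraries with drug, against 0 and 0 with vehicle. In these introns intronic reads outnumbered spliced reads in every drug library and in no vehicle library. Intronic reads were counted over the whole intron and spliced reads at its junction, so this does not measure the part of RNA left unspliced. Summed over both introns, J2 vehicle libraries held 6 and 4 intronic beside 13 and 13 spliced reads. The ratio of intron 1 rose by 1.10 ± 0.23 in the input (adjusted p = 0.004) and changed by -0.42 in J2 RNA (adjusted p = 0.16).

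In ATF6 the junctions of introns 1 to 4 moved apart from the rest. Summed, they had 292 and 318 spliced reads in input libraries with drug, against 98 and 90 with vehicle, and 170 and 174 in J2 libraries with drug, against 46 and 49 with vehicle. Those of introns 5 to 15 had 131 and 99 in input libraries with drug, against 201 and 194 with vehicle, and 123 and 314 in J2 libraries with drug, against 51 and 43 with vehicle. In the input the 5′ end of the ATF6 transcript was thus higher with the drug and the remainder lower in every library.

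The junction of ATF6 intron 2 (chr1:161778321-161781911, plus strand) had 93 and 97 reads in input libraries with drug, against 13 and 21 with vehicle, and 47 and 39 in J2 libraries with drug, against 7 and 4 with vehicle. It rose by 2.54 ± 0.30 in the input and by 3.03 in J2 RNA. That of intron 4 (chr1:161784097-161791407) rose by 1.60 in the input and by 4.35 in J2 RNA, where it had 34 and 47 reads with drug and 0 and 4 with vehicle. The junctions of introns 10 and 11 fell in the input by 1.59 (adjusted p = 0.024) and 1.46 (adjusted p = 0.034), calls that were absent with TMM and median-of-ratios scaling. In J2 RNA 12 of 14 junctions of ATF6 rose, against 26.1% of all junctions tested. J2 drug replicate 2 held more reads than replicate 1 over introns 5 to 15.

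Most intronic reads of ATF6, 75.4% in the input with drug and 90% with vehicle, 70.2% in J2 RNA with drug and 87.1% with vehicle, lay in intron 14 (chr1:161863313-161912295), which overlaps an exon of another gene, AL391825.1. It held 26 and 26 in input libraries with drug, against 55 and 35 with vehicle. With the introns that overlap other genes' exons left out, ATF6 did not pass the filter. The ratio of intron 14 itself changed by 0.22 in the input (adjusted p = 0.78) and fell by 1.69 in J2 RNA (adjusted p = 0.034).

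**Figure D4:**
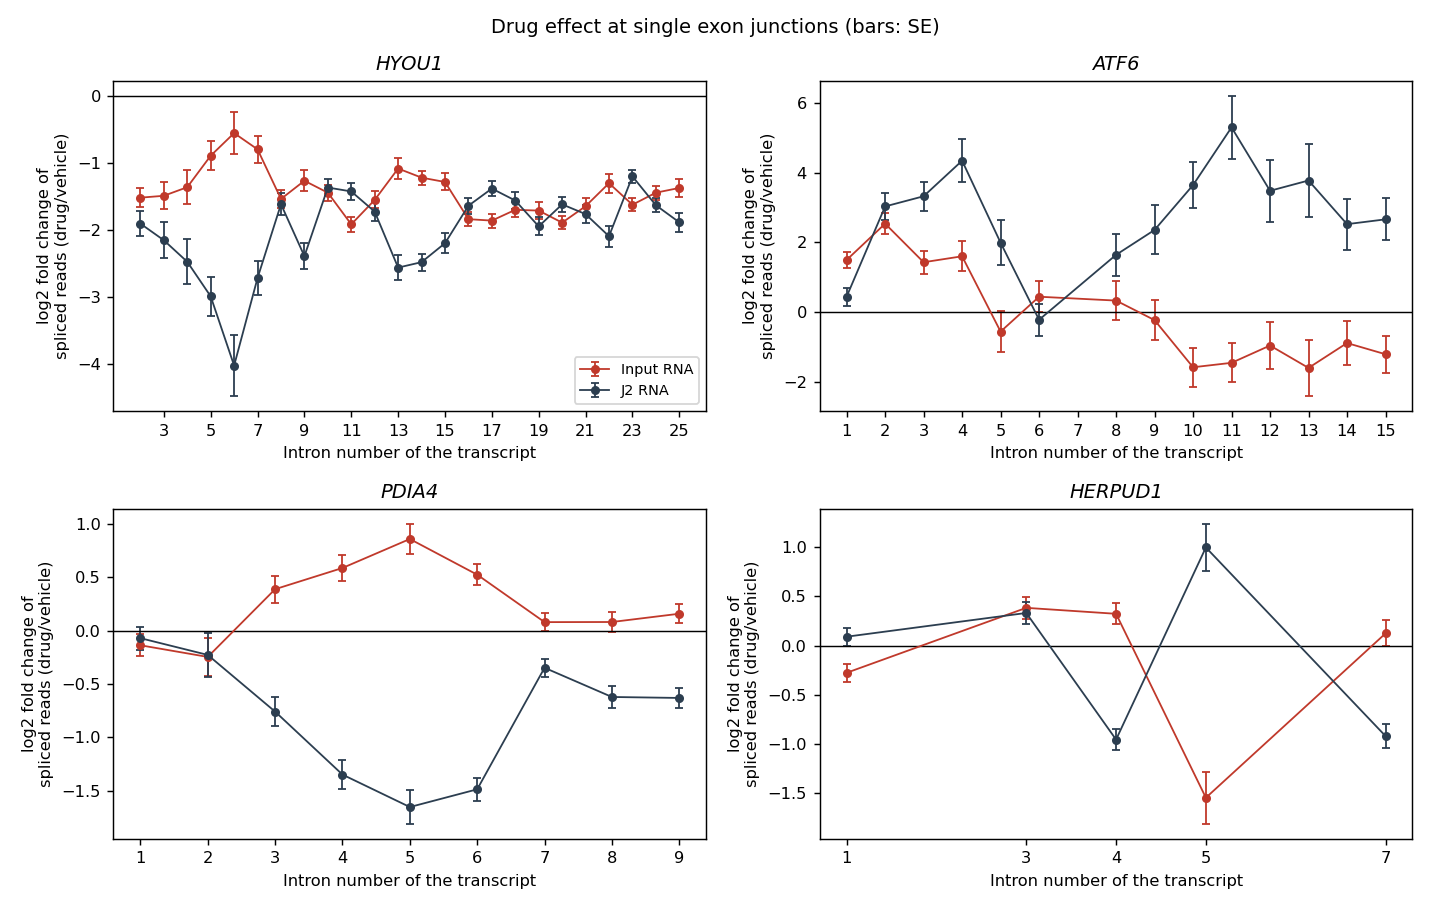
Log2 fold change of spliced reads at single junctions, drug over vehicle, by intron number in HYOU1, ATF6, PDIA4 and HERPUD1, in input and J2 RNA, with bars of 1 SE. ATF6 is highest at introns 1 to 4 in the input, HERPUD1 intron 5 lies at -1.54 in the input and at 1.00 in J2 RNA, and PDIA4 intron 5 at 0.86 and -1.65.

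HERPUD1 had a junction that changed oppositely in the input and in J2 RNA. Intron 5 (chr16:56939360-56939894, plus strand, 535 bases) had 24 and 20 spliced reads in input libraries with drug, against 71 and 63 with vehicle, and 65 and 81 in J2 libraries with drug, against 35 and 43 with vehicle. It fell by 1.54 ± 0.26 in the input (adjusted p = 0.00014) and rose by 1.00 ± 0.24 in J2 RNA (adjusted p = 0.0021). The neighbouring junction of intron 4 (chr16:56936818-56939236) had 393 and 495 reads in input libraries with drug, against 362 and 377 with vehicle, and 296 and 294 in J2 libraries with drug, against 592 and 629 with vehicle. It changed by 0.32 in the input (adjusted p = 0.017) and fell by 0.95 in J2 RNA (adjusted p = 2.5e-06), so neighbours in the gene moved against each other in both kinds of RNA. Relative to its gene, intron 5 changed by -1.06 in the input and 0.90 in J2 RNA, and the difference of 1.97 passed diffSpliceDGE (adjusted p = 3.28e-06). Intron 4 held 5.25 intronic reads on average over the 8 libraries. Its intronic to spliced ratio changed by -1.86 in the input and by 1.84 in J2 RNA. Neither was called by limma over all introns, but both were among introns with at least 5 intronic reads on average. The files list 5 of the 7 introns of HERPUD1.

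Intron 1 of HERPUD1 held 37 and 45 intronic reads in input libraries with drug, against 17 and 20 with vehicle, and 34 and 38 in J2 libraries with drug, against 10 and 11 with vehicle. Its ratio rose by 1.44 ± 0.40 in the input (adjusted p = 0.015) and by 1.69 in J2 RNA (adjusted p = 0.0069). The rise in the input was 1.36 without input drug replicate 2 (adjusted p = 0.067) and 1.40 without input vehicle replicate 1 (adjusted p = 0.052).

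In PDIA4 the junctions of introns 4 to 6 rose in the input, by 0.59, 0.86 and 0.53, and fell in J2 RNA by 1.35, 1.65 and 1.49. That of intron 5 (chr7:149012005-149012154, minus strand, 150 bases) had 373 and 547 reads in input libraries with drug, against 270 and 257 with vehicle, and 118 and 138 in J2 libraries with drug, against 419 and 441 with vehicle. Relative to its gene it changed by 0.46 in the input (adjusted p = 0.0025) and by -0.68 in J2 RNA (adjusted p = 1.1e-05), a difference of -1.14 (adjusted p = 2.7e-07). The middle of the PDIA4 transcript thus differed most between the input and J2 RNA.

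Intron 7 of PDIA4 (chr7:149006054-149008158, 2105 bases) held 98 and 125 intronic reads in input libraries with drug, against 79 and 106 with vehicle, and its ratio changed by 0.25 (adjusted p = 0.57). In J2 RNA intron 7 held 48 and 42 with drug, against 20 and 21 with vehicle, and its ratio rose by 1.54 ± 0.34 (adjusted p = 0.0049).

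The junction of XBP1 intron 4 (chr22:28795733-28796046, minus strand), the last, had 659 and 634 reads in input libraries with drug, against 727 and 749 with vehicle, and 546 and 569 in J2 libraries with drug, against 1119 and 1209 with vehicle. It changed by -0.13 in the input (adjusted p = 0.18), which turned to called rises of 0.42 with TMM (adjusted p = 0.00077) and 0.46 with median-of-ratios scaling (adjusted p = 0.00042), and fell by 0.97 ± 0.08 in J2 RNA (adjusted p = 1.3e-07). It was the single XBP1 junction called in J2 RNA. The intronic to spliced ratio of introns 2, 3 and 4 was not called in either RNA. That of intron 1 fell by 1.96 ± 0.66 in J2 RNA (adjusted p = 0.033), a value of -0.96 without J2 drug replicate 1 (adjusted p = 0.22).

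The less abundant members gave few testable introns. Intron 1 of SEL1L had 67 and 66 spliced reads in input libraries with drug, against 122 and 120 with vehicle (-0.80, adjusted p = 0.0045), a call lost with TMM (-0.26, adjusted p = 0.31) and median-of-ratios scaling (-0.22, adjusted p = 0.39); the files list 7 of its 20 introns. Intron 1 of DNAJB9 had 56 and 73 spliced reads in input libraries with drug, against 121 and 129 with vehicle, and 67 and 65 in J2 libraries with drug, against 123 and 131 with vehicle. The fall of DNAJB9 intron 1 in the input (-0.89) was also lost with TMM (-0.35, adjusted p = 0.098) and median-of-ratios scaling (-0.31, adjusted p = 0.14), and that in J2 RNA (-0.85) was not. Intron 1 of DNAJC3 had 43 and 51 spliced reads in J2 libraries with drug, against 29 and 17 with vehicle (1.12, adjusted p = 0.0027). Intron 1 of EIF2AK3 had 30 and 24 in input libraries with drug and 11 and 30 with vehicle, whereas its introns 2 to 16 together had 22 and 28 with drug, against 71 and 56 with vehicle. Intron 4 of EIF2AK3 held 8 and 8 intronic reads in input libraries with drug, against 0 and 2 with vehicle, and 4 and 8 in J2 libraries with drug, against 4 and 2 with vehicle. Intron 6 of DNAJC3 held 0 to 2 intronic reads in a library, and neither of these introns had the reads to be tested.

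Counted over all members, the junctions of 83 of 114 introns were tested, and 10 rose and 30 fell in the input, against 15% and 46.9% of 54498 introns. In J2 RNA 18 rose and 37 fell, against 26.1% and 38.9%; introns of a gene share its RNA and are not replicates. Junctions moved unequally within 4 members in the input, ATF6, HERPUD1, HYOU1 and PDIA4, against 37.2% of 7172 genes (diffSpliceDGE). In J2 RNA ERN1 and XBP1 joined them, 6 members against 57.4% of genes. Single junctions changed relative to their gene in 7 of 82 tested in the input, 3 higher and 4 lower, against 2.69% and 4.54% of 53056, and in J2 RNA 8 were higher and 17 lower, against 9.87% and 8.32%. For the difference between both drug effects 11 were higher and 15 lower, against 9.81% and 6.82%. The intronic to spliced ratio rose in 32 and fell in 2 of 66 introns tested in the input, against 43% and 3.71% of 45220, and rose in 34 and fell in 5 in J2 RNA, against 41.6% and 7.76%. Of the introns called, 18 in the input and 21 in J2 RNA had under 1 intronic read on average, so their ratios follow the spliced reads; intron 2 of ATF6, called at -2.45 and -2.79, had 0 intronic reads in all 8 libraries. Among the 16 introns with at least 5 such reads, 10 rose and 1 fell in the input, against 66.7% and 2.27% of 14509 introns, and 11 rose and 2 fell in J2 RNA, against 66.8% and 3.73%.

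Relative to the input, J2 RNA held less spliced RNA of most members. With vehicle, SEL1L differed by -2.67 ± 0.24, DNAJC3 by -2.37 ± 0.26, ERN1 by -2.34 ± 0.13, ATF6 by -1.78 ± 0.21, EIF2AK3 by -1.55 ± 0.33, HYOU1 by -0.77 ± 0.06 and PDIA4 by -0.27 ± 0.08. These 7 were called lower, against 44.3% of genes, while 16.4% of genes were higher; the value of PDIA4 lost its call without input vehicle replicate 1 or either J2 vehicle library (adjusted p = 0.06 to 0.065) and turned to 0.11 with median-of-ratios scaling. XBP1 (0.14, adjusted p = 0.054), HERPUD1 (0.11) and DNAJB9 (-0.18) were not called.

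With the drug, SEL1L (-2.15 ± 0.25), ERN1 (-1.89 ± 0.13), PDIA4 (-1.14 ± 0.08), HYOU1 (-0.97 ± 0.06), DNAJC3 (-0.92 ± 0.24) and XBP1 (-0.19 ± 0.06) were lower in J2 RNA than in the input, 6 members against 27.4% of genes, while 28.2% of genes were higher. Without input drug replicate 2, DNAJC3 was at -0.80 (adjusted p = 0.065) and XBP1 at -0.15 (adjusted p = 0.064). ATF6, called with vehicle, was at -0.23 with the drug and was not called.

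Intronic reads of ERN1 stood apart from its spliced reads. They were higher in J2 RNA than in the input by 1.09 ± 0.11 with vehicle and by 0.87 ± 0.10 with the drug, and the ratio by 3.42 ± 0.19 (limma, adjusted p = 0.00066) and 2.75 ± 0.19 (adjusted p = 0.0027). ERN1 was thus the 1 member of 5 called higher, with vehicle and with drug, against 7.84% and 26.5% of genes. PDIA4 (-2.08 ± 0.27), XBP1 (-1.37 ± 0.40) and HYOU1 (-0.85 ± 0.31) were lower with vehicle, against 29.4% of genes; HYOU1 was not called without a filter (adjusted p = 0.065), and XBP1 reached 1 RPM of intronic reads in input libraries only. XBP1 (-1.76 ± 0.42) and PDIA4 (-0.98 ± 0.23) were lower with the drug, against 18.9%. With vehicle, XBP1 lost its call without input vehicle replicate 1 (-1.27, adjusted p = 0.062) or J2 vehicle replicate 1 (-1.15, adjusted p = 0.07). For the ratio, 1 member was higher and 1, PDIA4 (-1.78 ± 0.25, adjusted p = 0.0047), lower with vehicle, against 8.91% and 18.6%, and ERN1 alone was called with the drug, against 7.06% higher and 6.98% lower.

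The drug effect itself differed between J2 RNA and input for 5 members in spliced reads, by the interaction term of edgeR's fit. It was larger in J2 RNA for EIF2AK3 (1.72 ± 0.46, adjusted p = 0.013), ATF6 (1.55 ± 0.29, adjusted p = 0.0019) and DNAJC3 (1.45 ± 0.35, adjusted p = 0.0073), against 35.8% of genes. It was more negative in J2 RNA for PDIA4 (-0.87 ± 0.11, adjusted p = 0.00025) and XBP1 (-0.33 ± 0.08, adjusted p = 0.0072), against 13.8%. PDIA4 went from 0.20 in the input to -0.67 in J2 RNA, and XBP1 from -0.07 to -0.40. The difference of ATF6 lay mostly in part of its transcript. At ATF6 introns 1 to 4, spliced levels with drug were 3.37 times vehicle in the input and 3.87 times in J2 RNA. At introns 5 to 15 they were 0.61 and 4.88 times, and the J2 drug libraries held 123 and 314 reads there. Without J2 vehicle replicate 1, EIF2AK3 was at 1.52 (adjusted p = 0.053). In intronic reads the difference was called for 2 members, ATF6, which the filter favoured as said above (adjusted p = 0.041 without a filter), and PDIA4, and in the ratio for PDIA4, against 25.7% and 6.12% of genes higher and 2.93% and 3.65% lower.

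Of 61 further genes of the response listed by role, 57 were tested in spliced reads, and 14 rose and 26 fell with the drug in the input, against 21.8% and 48.7% of all genes and with a median change of -0.18 beside -0.38 for all genes. With median-of-ratios scaling 26 rose and 19 fell. In J2 RNA 18 rose and 25 fell, against 34.6% and 39.5%, with a median of -0.02 beside -0.03. Among 10 chaperones 2 rose and 7 fell in the input, against 21.8% and 48.7%, and 1 rose and 6 fell in J2 RNA, against 34.6% and 39.5%. HSPA5, which encodes BiP, had 95.8 and 110 RPM in input libraries with drug, against 178 and 184 RPM with vehicle (-0.81 ± 0.13, adjusted p = 0.00031), and 45.5 and 63.9 RPM in J2 libraries with drug, against 82.4 and 82.9 RPM with vehicle. MANF, a secreted stress protein, had 17.1 and 18.3 RPM in input libraries with drug, against 58.7 and 57.7 RPM with vehicle (-1.72), and its intronic share averaged 24.6% with drug and 1.01% with vehicle.

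In the PERK arm 4 of 8 genes rose and 2 fell in the input, against 21.8% and 48.7% of all genes. ATF4, its transcription factor, had 105 and 118 RPM in input libraries with drug, against 70.9 and 69.7 RPM with vehicle (0.67 ± 0.11, adjusted p = 0.00035), and 121 and 93.5 RPM in J2 libraries with drug, against 112 and 105 RPM with vehicle, which overlapped. PPP1R15A, the phosphatase subunit that reverses PERK signalling, had 149 and 146 RPM in J2 libraries with drug, against 69.7 and 69.1 RPM with vehicle (1.09). DDIT3, a target of ATF4, changed by 0.30 in the input (adjusted p = 0.032).

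Among 15 genes of endoplasmic reticulum-associated degradation 5 rose and 6 fell in the input, against 21.8% and 48.7% of all genes (9 and 5 with median-of-ratios scaling), DERL1, a channel component, having 34.4 and 32.3 RPM with drug, against 13.7 and 14 RPM with vehicle (1.27). The ubiquitin-binding adaptor FAF2 had 17.5 and 19.9 RPM in input libraries with drug, against 5.96 and 6.14 RPM with vehicle (1.63). Of 12 translocon and export genes 7 fell in the input, against 48.7% (5 with median-of-ratios scaling), with the COPII coat gene SEC23B at 8.38 and 9.58 RPM with drug, against 24.9 and 27.7 RPM with vehicle (-1.55). Of 6 oxidoreductases 1 rose and 2 fell (3 and 1 with median-of-ratios scaling), and of 6 genes of the IRE1 and ATF6 arms 2 rose and 2 fell (4 and 0), against the same shares. CREB3L2, a transcription factor cleaved in the Golgi apparatus like ATF6, had 12.1 and 12.2 RPM in input libraries with drug, against 4.21 and 4.63 RPM with vehicle (1.46), and 10.98 and 12.0 RPM in J2 libraries with drug, against 1.36 and 1.32 RPM with vehicle (3.10). By size of the p-value, the genes called most clearly also included the p97 cofactor gene UFD1L, which rose by 1.19 in the input, and VIMP, a partner of the derlins, which fell by 0.95 in the input and by 1.22 in J2 RNA. The ratio rose most clearly for MANF (4.96 in the input, 5.51 in J2 RNA), for the transcription factor gene CREB3 (3.88, 4.68) and for the disulfide isomerase gene P4HB (3.17, 4.21), and in the input it fell for DDIT3 (-1.11) and for SSR4 (-0.42), a subunit of the translocon-associated complex. Of 30 of these genes tested for the intronic to spliced ratio, 24 were higher with the drug in the input and 24 in J2 RNA, against 83.8% and 83.5% of all genes. With median-of-ratios scaling 8 were higher and 12 lower in the input, and 9 were higher and 14 lower in J2 RNA. Genes could pass the filter of intronic reads through drug libraries alone, which favours a rise. This was not checked for MANF, CREB3, P4HB or the others of the 30.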

How the data were processed

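Libraries were polyadenylated, stranded TruSeq preparations, per the labels' protocols. HISAT2 2.0.4 is named in the submitters' processing notes, as are builds mm10 and hg38; the counting program, strand setting and choice of introns are not given in the sources used here. Each deposited table lists 142224 introns without a header. The first deposited count was taken as reads inside the intron and the excess of the second count over it as spliced reads, which no header states and which was inferred from the values. The authors' RPKM divides that count by intron length and by a library depth in round numbers, which served here as library size. The 18 introns without these values were left out. Introns were matched to GENCODE 29 transcripts (138297 of 138729 introns of 15509 genes), and the sequences and coordinates are on GRCh38.

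Reads summed per gene were tested with edgeR 4.0.16 (quasi-likelihood) and the ratio log2((intronic + 1)/(spliced + 1)) with limma 3.58.1, in R 4.3.3, with 4 group means in 1 fit of 8 libraries. Genes needed at least 1 RPM in at least 2 libraries, of intronic and of spliced reads for the ratio. Introns needed a mean of 20 reads for the ratio and junctions a mean of 10 spliced reads. P-values were Benjamini-Hochberg adjusted over all genes or introns, with a threshold of 0.05. Tests of single junctions and of their use within a gene (edgeR's diffSpliceDGE), and the subset with at least 5 intronic reads, were added after seeing the data. The intron fit lets limma's prior spread follow the mean intronic reads, a choice made when it was tested on simulated data. Named pathway genes were HSPA5, ATF4 and DDIT3 and, in both drug comparisons, up to 3 genes each way with the smallest p for spliced reads and for the ratio. Named introns were those of XBP1, the intron of each member with most intronic reads per kilobase, and the 5 largest and 5 smallest changes of the ratio with drug in the input; other introns and junctions were chosen after seeing their values, and 1 of these is not reported here. The 10 genes and the lists were chosen with earlier results of these data known. Alternatives were TMM and median-of-ratios scaling, DESeq2 1.42.0, other filters, pseudocounts and fits, a replicate block, and leaving out each library. Replicates of a group differed beyond sampling noise, with a chi-square per degree of freedom of 2.85 to 14.8, the highest in J2 RNA with drug, and each was counted as a sample.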

Additional observations from a re-analysis of the deposited data

Results flagged for a closer look

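The results below stand out because the drug effect, log2 of drug over vehicle, differed between J2 RNA and input by a test of that difference itself. In spliced reads (edgeR interaction, Benjamini-Hochberg adjusted) the drug effect of J2 RNA less that of input RNA was 1.55 for ATF6 (adjusted p = 0.0019), 1.45 for DNAJC3 (adjusted p = 0.0073) and 1.72 for EIF2AK3 (adjusted p = 0.013). It was -0.87 for PDIA4 (adjusted p = 0.00025) and -0.33 for XBP1 (adjusted p = 0.0072). By the same test 35.8% of all genes were higher and 13.8% lower. At ATF6 introns 1 to 4, spliced levels with drug were 3.37 times vehicle in the input and 3.87 times in J2 RNA. At introns 5 to 15 they were 0.61 and 4.88 times, so the ATF6 value reflects mostly this part of the transcript. In intronic reads the difference was 1.45 for ATF6 (adjusted p = 0.032) and 1.10 for PDIA4 (adjusted p = 0.024), where 25.7% of genes were higher and 2.93% lower; ATF6 passed the filter through 1 input vehicle and 1 J2 drug library, which favours this difference. In the intronic to spliced ratio it was 1.94 for PDIA4 (limma, adjusted p = 0.026), where 6.12% of genes were higher and 3.65% lower. The J2 libraries with drug differed most from each other, and EIF2AK3, ATF6 and DNAJC3 were higher in J2 drug replicate 2 than in replicate 1; the part of that spread in these results was not tested. Several of these calls were lost when 1 library was left out: PDIA4 in the ratio without any 1 of 6 libraries, ATF6 in intronic reads without any 1 of 5 (1.08 to 1.54) and PDIA4 in intronic reads without any 1 of 4 (0.87 to 0.96).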

How the results depend on the processing

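Counts are of members called and values are log2 changes. Under the alternatives 355 counts stayed within 1.5 times the value reported and 75 did not. TMM and median-of-ratios scaling gave the same counts: 4 members higher in spliced reads in the input and 23 junctions higher there, 1 higher and 4 lower in intronic reads in the input, 1 higher and 3 lower in J2 RNA, 2 in intronic reads of J2 against input with vehicle and 1 in the intronic interaction. With median-of-ratios scaling the ratio gave 1 higher and 4 lower in the input and 1 higher and 3 lower in J2 RNA. Fitting only the groups compared gave 5 lower in spliced reads in the input. Without a filter 7 members were higher in intronic reads in J2 RNA and 5 in the ratio there, 0 lower in the ratio in either RNA, and J2 against input gave 1 with vehicle, 0 with drug and 0 for the interaction. A filter on the mean, and introns free of other genes' exons, gave 0 lower in the ratio in both, and the mean filter 1 in the intronic interaction, where DESeq2 gave 0. Introns with at least 5 intronic reads gave 10 higher and 1 lower in the input, and in J2 RNA 11 and 2; a mean of 50 reads left 0 and 1 lower, a mean of 10 reads 10 lower in J2 RNA, and no trend in the prior spread 3. A mean of 20 spliced reads left 7 junctions higher in J2 RNA. The cause was not tested, apart from the fewer or more features each filter tests.

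With TMM and median-of-ratios scaling, spliced reads in the input turned to 0.13 and 0.26 for DNAJC3, 0.037 and 0.17 for ERN1, 0.27 and 0.40 for HERPUD1, and 0.22 and 0.34 for XBP1. In J2 against input with vehicle DNAJB9 turned to 0.077 and 0.20 and, with median-of-ratios scaling, PDIA4 to 0.11, and the DNAJB9 interaction to -0.12. Intronic reads turned to -0.37 and -0.39 for ERN1 and -1.20 and -1.22 for PDIA4 in the input, and to -1.10 and -1.08 for ERN1, -0.61 and -0.59 for PDIA4 and -1.20 and -1.18 for ATF6 in J2 RNA. The median-of-ratios ratio turned to -0.65, -1.91 and -2.15 for ERN1, PDIA4 and XBP1 in the input, to -1.58 and -0.19 for ERN1 and PDIA4 in J2 RNA, and to 0.11 for HYOU1 in J2 against input with vehicle. A pseudocount of 0.5 turned the ratio of ATF6 intron 1 in J2 RNA to 0.20 and that of DNAJB9 intron 1 in the input to -0.20.

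Leaving out each library in turn gave 0 to 2 members higher and 3 to 5 lower in spliced reads in the input, 0 to 1 lower in intronic reads in J2 RNA, 0 to 1 lower in the ratio in the input, 2 to 5 in intronic reads of J2 against input with vehicle, 0 to 2 in the intronic interaction, 1 to 2 in the ratio of J2 against input with drug and 0 to 2 in the ratio interaction. It gave 2 to 5 introns lower in the input and 3 to 5 in J2 RNA, and 10 to 19 junctions higher in J2 RNA. Values not called crossed 0: spliced reads of HERPUD1 in the input (-0.12 to 0.097), and in J2 against input with drug ATF6 (-0.59 to 0.058), DNAJB9 (-0.074 to 0.14) and EIF2AK3 (-0.31 to 0.53). Intronic reads of XBP1 ranged over -0.36 to 0.24 in the input, -1.49 to 0.17 in J2 RNA and -1.46 to 0.20 for the interaction, and its ratio over -0.32 to 0.35, -0.97 to 0.58 and -0.98 to 0.56. The ratio ranged over -0.53 to 0.29 for HYOU1 in J2 against input with vehicle, -0.12 to 0.43 for PDIA4 in J2 against input with drug and -0.50 to 0.31 for the ATF6 interaction. Single introns ranged over -0.21 to 0.64 (ATF6 intron 14, input), -1.19 to 1.51 (DNAJB9 intron 1, input), -0.90 to 0.49 and -0.18 to 2.69 (XBP1 intron 3, input and J2 RNA) and -1.37 to 1.24 (ATF6 intron 1, J2 RNA).

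Same-numbered libraries hardly deviated together (correlations of -0.0775 to 0.0999), and the main fits did not pair them. With 2 libraries a group, this check cannot show whether libraries of the same number came from a shared culture. With the replicate block the counts in spliced reads in the input were 2 higher and 3 lower, as without it. Depth limits intronic reads most: 5 of 10 members passed their filter, and 2 libraries a group leave folds of such genes imprecise.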
